A study of Mus musculus with 69 samples.

Results

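RNA from ovaries of older female mice was compared between 2 genotypes that differ at Zeb1, a zinc finger transcription factor gene. In Zeb1_200M (200M) mice each Zeb1 allele carried point mutations in the sites of its 3′ UTR that are bound by miR-200 microRNAs, and Zeb1_WT (WT) mice carried the unmodified gene. The comparison rests on the 4 WT and 4 200M libraries of the older ovary, chosen by these labels, out of the 69 libraries of the series, and on all 55401 genes counted in them. The question was which genes of the older ovary differ when both Zeb1 alleles cannot be bound by miR-200.

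All mice were C57BL/6J females. The 8 older mice were 28 to 36 weeks old and had gone through a breeding trial with WT males, then lived singly and were killed at proestrus as judged by vaginal cytology. The mutation was a germline knock-in present in every cell, and the cohort descended from a pair of embryonic stem cell clones and their intercross, with no label tying a library to a clone. RNA was taken from a whole frozen ovary of each mouse. Used beside this comparison were 4 older Zeb1_200H (200H) ovaries, which carry 1 mutated and 1 unmodified allele, and 4 WT and 4 200M ovaries of virgin females aged 8 to 12 weeks. In bulk tissue, fewer cells of a type and less RNA per cell cannot be told apart, and this holds for every gene below.

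The ovary holds oocytes in follicles, each lined by granulosa cells and wrapped by theca cells. A surge of luteinizing hormone (LH) from the pituitary makes the ripe follicle ovulate, and the remaining granulosa and theca cells then become the corpus luteum, a gland that makes progesterone from cholesterol and later regresses. miR-200 microRNAs are best known in epithelial cells, where they keep Zeb1 and its relative Zeb2 low, and ZEB proteins in turn bind E-boxes and repress epithelial genes and the miR-200 host transcripts.

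The microRNAs whose pairing to Zeb1 is lost in 200M mice are shown first, since the genotype is defined by them. They come from 2 clusters and fall into 2 families by seed, the bases 2 to 8 that pair with a target, given in capitals. The sequences are those of RefSeq on GRCm38.p6, and all lie on the minus strand. miR-200b (chr4:156055685-156055706), miR-429 (chr4:156053916-156053937) and miR-200c (chr6:124718324-124718346) share the seed AAUACUG.
mmu-miR-200b-3p: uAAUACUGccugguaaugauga
mmu-miR-429-3p: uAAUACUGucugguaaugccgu
mmu-miR-200c-3p: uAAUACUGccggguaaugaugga

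miR-200a (chr4:156054911-156054932) and miR-141 (chr6:124717917-124717938) share the seed AACACUG.
mmu-miR-200a-3p: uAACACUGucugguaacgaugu
mmu-miR-141-3p: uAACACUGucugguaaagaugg

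The 8 libraries held 7985206 to 13267062 counts assigned to genes. Levels are given as CPM (a gene's counts scaled to the size of its library) after scaling by edgeR's TMM factors over the 12 older ovary libraries, and in the order of replicates 1 to 4. Defining genes of luteal, granulosa, theca and oocyte cells were present in every library, so the tissue label held. The libraries were not equally free of neighbouring tissue. The summed level of 7 oviduct genes was 764, 9.61, 9.13 and 9.69 CPM in WT and 315, 26.5, 3446 and 323 CPM in 200M, and that of 8 adipocyte genes was 2106 CPM in 200M 3 against 89.4 to 352 CPM in the other 7. WT 1 and 200M 3 thus held the most oviduct RNA of their group, and the same libraries lay at the positive end of the first principal component, which took 61.4% of the variance over the 2000 most variable genes. The second component, with 21.1%, placed 200M 1, 2 and 4 between −39.5 and −34.3, 200M 3 at 8.47 and the WT libraries between 19.3 and 33.2. Results below are given with all 8 libraries, and where it matters without WT 1 and 200M 3 or with the oviduct level as a covariate. Without WT 1 and 200M 3 the oviduct level was not evened out. It was then 9.13 to 9.69 CPM in WT and 26.5 to 323 CPM in 200M, without overlap.

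**Figure D1:**
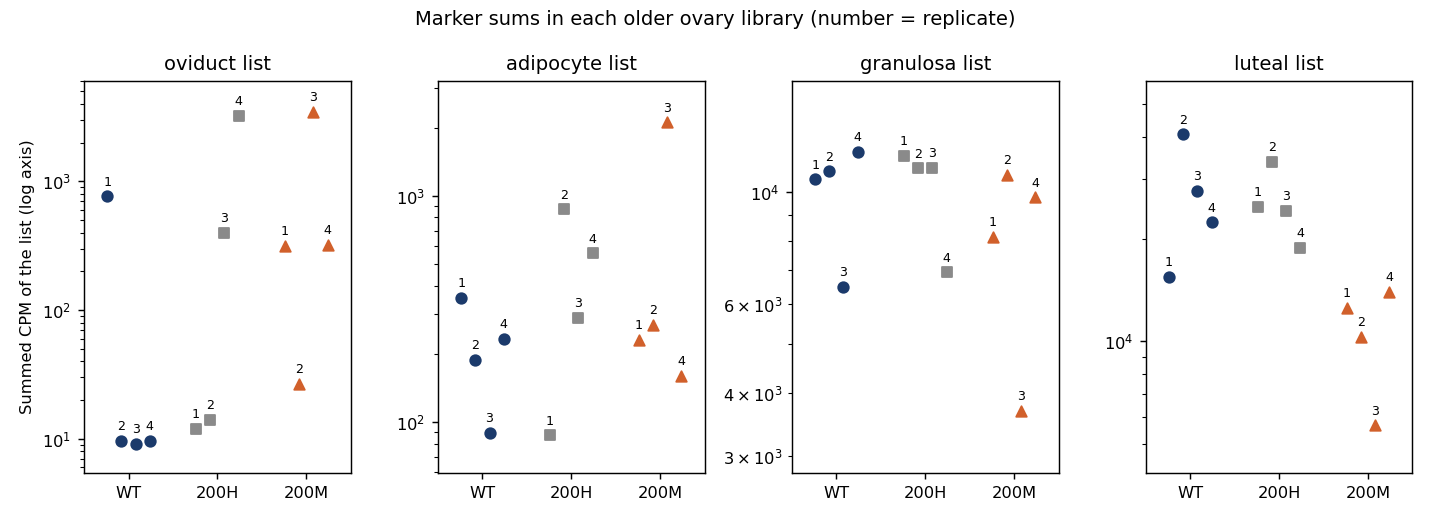
Summed CPM (log axis) of the oviduct, adipocyte, granulosa and luteal marker lists in each older ovary library, with 1 point per WT, 200H and 200M library and its replicate number above it. Luteal sums of the 4 WT libraries (15490 to 40590) lie above those of the 4 200M libraries (5666 to 14010), and oviduct sums are highest in 200M 3 (3446) and, among WT, in WT 1 (764).

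Zeb1 itself stood at 72.3, 93.4, 96.2 and 104 CPM in WT and at 87.3, 77.6, 60.1 and 86.5 CPM in 200M. The groups overlapped, and the log2 difference of 200M against WT was −0.22 ± 0.158 (SE, n = 4 and 4, edgeR quasi-likelihood test, adjusted p = 0.515). The mutated bases are not visible in counts per gene, so this value does not check the genotype. Zeb2, the other ZEB gene, went from 223 ± 34.2 CPM (SD, n = 4) in WT to 177 ± 59.6 CPM in 200M, a log2 difference of −0.32 ± 0.248 with adjusted p = 0.542.

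Of the miR-200 host transcripts, Gm13648 (chr4:156052715-156059802, the miR-200b cluster) was near the detection limit at 0.97 ± 0.494 CPM in WT and 1.60 ± 2.29 CPM in 200M. Gm15884 (chr6:124715573-124718831), which lies over the miR-200c cluster and overlaps exons of Phb2 on the other strand, was at 26.9 ± 1.70 and 28.9 ± 12.2 CPM. Adjusted p was 0.70 for Gm13648 and 0.848 for Gm15884. The older libraries carry no strand, so reads of Gm15884 and Phb2 cannot be told apart, nor can those of any overlapping pair. In the young ovary libraries, which are stranded and of another chemistry, Gm15884 was at 0.30 ± 0.183 CPM in WT and 0.35 ± 0.0784 CPM in 200M. How much of the older value came from Phb2 was not tested.

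None of the 24 epithelial genes tested was called in either direction with all 8 libraries by edgeR or, of 21 tested, by DESeq2. Of all tested genes edgeR called 482 of 17792 and DESeq2 1329 of 18919. E-cadherin (Cdh1) was at 82.0, 20.02, 12.7 and 22.9 CPM in WT and at 32.4, 5.27, 196 and 27.1 CPM in 200M, so that its highest WT and 200M values came from the libraries richest in oviduct RNA, an epithelial tissue. The splicing factor Esrp1 and the small GTPase Rab25 were highest in the same libraries, at 23.9 and 9.28 CPM in WT 1 and 54.5 and 26.7 CPM in 200M 3. Epcam, an epithelial adhesion protein, was at 52.9, 18.0, 21.8 and 45.0 CPM in WT and at 12.1, 3.24, 109 and 9.33 CPM in 200M. Each 200M library but 200M 3 was thus below every WT library for Epcam, and WT 4 had 45.0 CPM at a summed oviduct level of 9.69 CPM. Its log2 difference was −0.06 with all 8 libraries (adjusted p = 0.979), −2.04 without 200M 3 and −1.76 without WT 1 and 200M 3 (adjusted p = 0.105). In the young ovary Epcam was at 11.4 to 18.3 CPM in WT and 2.49 to 9.84 CPM in 200M, without overlap (log2 difference −1.14 ± 0.287, adjusted p = 0.0532).

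Over the epithelial list the median log2 difference was 0.90 with 21 of 24 genes positive. It was 0.42 without WT 1 and 200M 3, where Elf3 and Ehf were called raised. In that fit the oviduct sums were 9.13 to 9.69 CPM in WT and 26.5 to 323 CPM in 200M. The median was −0.68 with the oviduct level as a covariate, where 6 of 24 were positive and none was called by edgeR. The direction of the list thus turned with the oviduct level in the fit.

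A total of 17792 genes had enough counts to be tested, and 482 were called changed at an adjusted p below 0.05 by edgeR's quasi-likelihood test. 200M ovaries had 271 genes raised, which is 1.52% of those tested, and 211 genes lowered, or 1.19%. The median log2 difference over all tested genes was 0.04. Falls were deeper than rises: 96 of the 211 lowered genes changed at least 4-fold and 27 at least 16-fold, against 67 and 7 of the 271 raised genes. All 271 raised and 208 of the 211 lowered genes had no overlap between the 4 WT and the 4 200M libraries, a separation that 6.14% of all tested genes showed upward and 6.18% downward.

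The number of calls rested on single libraries. It was 87 without WT 2, 104 without WT 3, 174 without WT 4, 123 without 200M 1 and 151 without 200M 4, while it was 599 without WT 1, 423 without 200M 2 and 449 without 200M 3. Leaving out both WT 1 and 200M 3 gave 752 calls, 406 of them among the 482, and the oviduct level as a covariate gave 222, with 167 among the 482. DESeq2 called 1329 genes, including 480 of the 482. None of the 482 genes turned its sign under any of these settings.

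**Figure D2:**
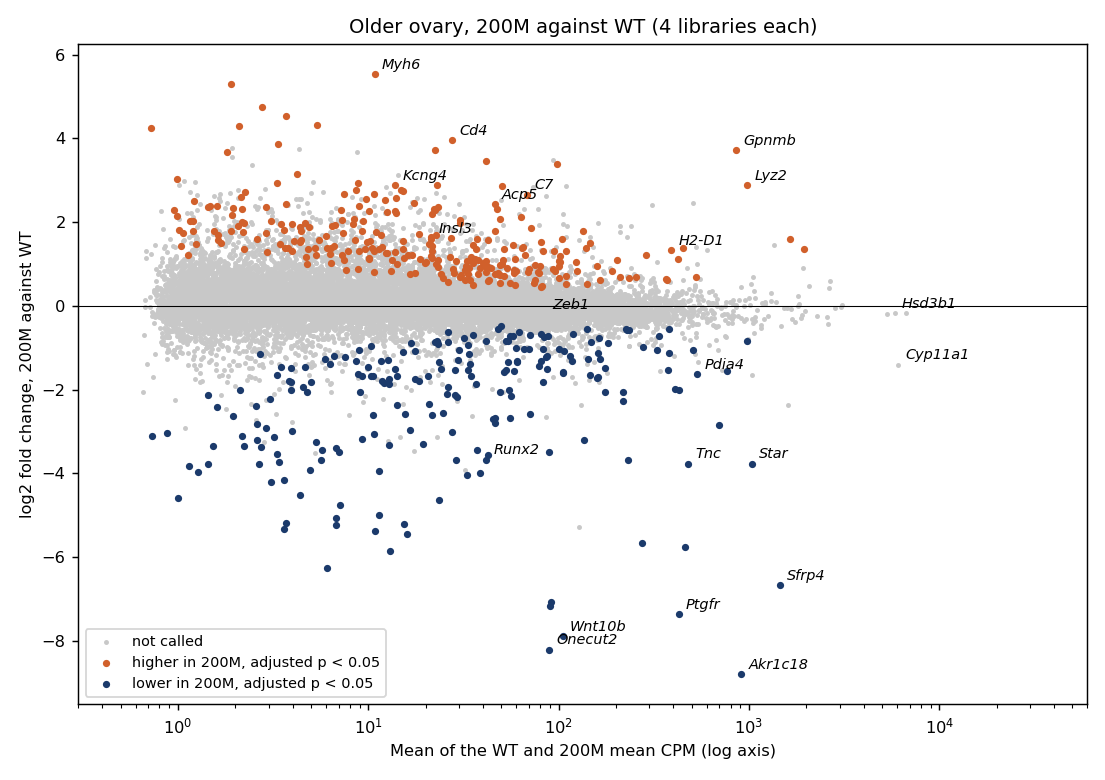
Log2 difference of 200M against WT (vertical axis) by the mean of the WT and 200M mean CPM (horizontal log axis) for each tested gene, with raised and lowered genes coloured and some genes named. The 27 genes that fell at least 16-fold reach −8.80 on the log2 scale, further from 0 than any of the 271 raised genes, which reach 5.54.

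Genes of the corpus luteum were among those that fell. Of 14 luteal genes tested, 7 were called lowered and none raised, where 1.19% of all tested genes were lowered, and all 14 had a negative log2 difference (median −1.62 against 0.04 over all tested genes). Its members Sfrp4, Runx2, Star and Cyp11a1 were singled out by the study on these same libraries, so the list is not independent evidence of a direction. Its summed level was 15490, 40590, 27650 and 22380 CPM in WT and 12560, 10310, 5666 and 14010 CPM in 200M, and the groups did not overlap. Without WT 1 and 200M 3, 10 of 14 were lowered, beside 401 of 17821 tested genes. With the oviduct level as a covariate it was 5 of 14, beside 73 of 17792. DESeq2 called 11 of 14 lowered, beside 611 of 18919.

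Among receptors, Ptgfr, through which prostaglandin F2α starts the regression of the corpus luteum, was measured at 289, 1669, 862 and 583 CPM in WT and at 4.59, 3.48, 5.41 and 6.67 CPM in 200M. Every 200M library was far below the lowest WT library. The gene (chr3:151796502-151837630) fell by 7.37 ± 0.605 on the log2 scale, or 165-fold, with adjusted p = 0.00152. Prlr, the receptor for prolactin, which keeps the rodent corpus luteum alive, was at 460, 1255, 743 and 662 CPM in WT and at 387, 190, 97.6 and 530 CPM in 200M. The groups overlapped at a single WT library, and its log2 difference of −1.35 ± 0.510 was not called by edgeR (adjusted p = 0.224). DESeq2 called Prlr lowered (0.0471). The LH receptor Lhcgr, made by theca, late granulosa and luteal cells, was at 511, 1376, 653 and 1133 CPM in WT and at 780, 864, 137 and 1101 CPM in 200M, and the groups overlapped (adjusted p = 0.793).

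Of the luteal transcription factors, Runx2 (chr17:44495987-44814797), induced in granulosa cells as they luteinize, was at 42.2, 93.0, 106 and 67.7 CPM in WT and at 6.88, 6.47, 5.41 and 5.31 CPM in 200M. It fell by 3.67 ± 0.293 on the log2 scale (adjusted p = 0.00147). The homeodomain factor Onecut2 was at 49.7, 362, 192 and 110 CPM in WT and at 0.76, 0.36, 0.33 and 0.83 CPM in 200M. At under 1 CPM in every 200M library, Onecut2 was almost undetected there, with a fall of 8.22 ± 0.767 on the log2 scale (adjusted p = 0.00252).

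Among secreted proteins, Sfrp4, a soluble Wnt-binding protein of the corpus luteum (chr13:19623104-19632994), was at 1888, 4118, 3080 and 2383 CPM in WT and at 29.9, 26.5, 17.4 and 36.8 CPM in 200M. It was among the most abundant transcripts of the WT ovary and fell by 6.68 ± 0.372 on the log2 scale (adjusted p = 0.000378), the smallest p of the comparison. The ligand Wnt10b (chr15:98770712-98778150) was at 76.5, 228, 252 and 282 CPM in WT and at 0.55, 1.08, 1.16 and 0.68 CPM in 200M, a fall of 7.89 ± 0.504 (adjusted p = 0.000514). In both genes the 4 200M libraries lay close together and the WT libraries varied by a few fold, with WT 1 lowest. Sfrp5, a relative of Sfrp4 that also binds Wnt proteins, moved the other way, from 0.26, 0.32, 0.46 and 0.16 CPM in WT to 13.3, 2.28, 3.33 and 9.33 CPM in 200M (log2 difference 4.53 ± 0.671, adjusted p = 0.0145). Sfrp5 lost its call without WT 2 or without WT 3, with an adjusted p of up to 0.0669, and with the oviduct covariate (0.0539).

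Enzymes of steroid synthesis did not all fall. Star, which carries cholesterol into the mitochondrion at the start of the pathway (chr8:25806555-25815982), was at 542, 3173, 3127 and 913 CPM in WT and at 162, 120, 68.9 and 212 CPM in 200M. The groups did not overlap, and Star fell by 3.77 ± 0.644 on the log2 scale (adjusted p = 0.0222). This call was lost without WT 2, WT 3, 200M 1, 200M 2 or 200M 4 (adjusted p of 0.055 to 0.0766) and with the oviduct covariate (0.0729). Cyp11a1, which turns cholesterol into pregnenolone, was at 4374, 13430, 9356 and 8429 CPM in WT and at 4270, 2934, 1497 and 4486 CPM in 200M, with WT 1 inside the 200M range. Its log2 difference of −1.41 ± 0.417 was not called by edgeR with all libraries (adjusted p = 0.125). It was called without WT 1 and 200M 3 (0.0258) and by DESeq2 (0.00529). Hsd3b1, which makes progesterone from pregnenolone, was at 5538 to 7673 CPM in WT and 3474 to 6681 CPM in 200M (log2 difference −0.17 ± 0.234, adjusted p = 0.731).

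Akr1c18, the enzyme that breaks progesterone down in the regressing corpus luteum (chr13:4132615-4150654), showed the largest fall of all tested genes. It was at 645, 4815, 1413 and 405 CPM in WT and at 6.33, 2.04, 3.66 and 4.10 CPM in 200M. WT libraries differed by over 10-fold among themselves, yet the lowest was far above every 200M library, and the log2 difference was −8.80 ± 0.986 (adjusted p = 0.00482). Hsd17b7, which acts in both oestradiol and cholesterol synthesis, was at 202, 162, 140 and 130 CPM in WT and at 68.4, 37.6, 29.6 and 73.0 CPM in 200M (log2 difference −1.59 ± 0.306, adjusted p = 0.0324).

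Of 15 genes of steroid synthesis tested, these 3 (Star, Akr1c18 and Hsd17b7) were lowered and none raised (median −0.36), beside 1.19% of all tested genes lowered. With the oviduct covariate 1 of 15 was lowered, beside 73 of 17792 tested genes, and the median was −0.03. DESeq2 called 5 of 16 lowered, beside 611 of 18919. Cyp17a1, the androgen-making enzyme of theca cells, was at 457 to 1554 CPM in WT and 75.6 to 880 CPM in 200M (adjusted p = 0.719), and Cyp19a1, the aromatase of granulosa cells, at 49.3 to 391 and 1.41 to 145 CPM (adjusted p = 0.649). For both enzymes the lowest value was in 200M 3 and the groups overlapped. Scarb1, the receptor that takes up cholesterol from lipoproteins for steroid synthesis, was at 804, 2157, 2093 and 1301 CPM in WT and at 576, 523, 163 and 722 CPM in 200M. Although the groups did not overlap, its log2 difference of −1.66 ± 0.468 had an adjusted p of 0.107 by edgeR. Adjusted p was 0.0124 without WT 1 and 200M 3 and 0.00266 by DESeq2.

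Genes of secretion and matrix were among the lowered genes of smallest p. Pdia4, a disulfide isomerase of the endoplasmic reticulum, was at 777, 744, 872 and 845 CPM in WT and at 241, 268, 283 and 245 CPM in 200M (log2 difference −1.63 ± 0.110, adjusted p = 0.000514). Its replicates agreed within narrow limits in both groups. Tenascin C (Tnc), a glycoprotein of remodelling matrix, was at 436, 915, 1082 and 1140 CPM in WT and at 87.9, 52.6, 47.7 and 69.8 CPM in 200M (log2 difference −3.77 ± 0.345). Ltbp1, which holds latent TGF-β in the matrix, was at 327, 419, 281 and 374 CPM in WT and at 95.9, 63.6, 83.4 and 90.4 CPM in 200M (log2 difference −2.06 ± 0.171). Neither gene overlapped between groups, and adjusted p was 0.00252 for Tnc and 0.00152 for Ltbp1.

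Plekhg4 was at 64.8, 288, 194 and 166 CPM in WT and at 0.98, 2.16, 1.00 and 0.91 CPM in 200M (log2 difference −7.17 ± 0.543, adjusted p = 0.00111). The orphan receptor Gpr141 was at 7.01, 19.5, 11.7 and 14.7 CPM in WT and at 0.44, 0.48, 0.08 and 0.38 CPM in 200M (log2 difference −5.24 ± 0.500, adjusted p = 0.00252). Neither gene overlapped between the groups, and Gpr141 was under 1 CPM in all 4 200M libraries. The zinc finger gene Zfp398 fell from 115 ± 16.1 to 42.2 ± 4.04 CPM (SD, n = 4) and the leucine-rich repeat gene Lrrn1 from 46.9 ± 2.39 to 21.1 ± 2.14 CPM, with log2 differences of −1.44 ± 0.124 and −1.14 ± 0.109. Adjusted p was 0.00194 for Zfp398 and 0.00252 for Lrrn1.

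**Figure D3:**
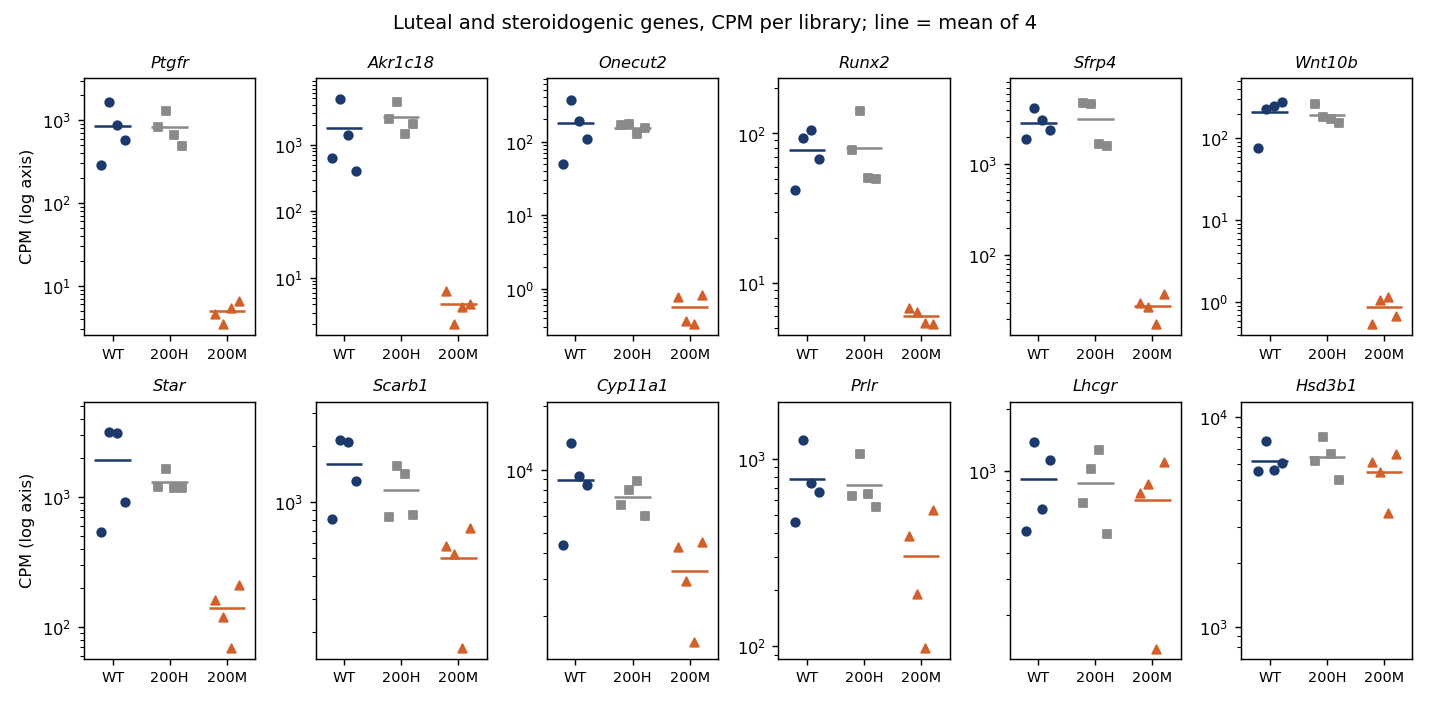
CPM (log axes, 1 panel per gene) of luteal and steroid genes in each of the 4 WT, 4 200H and 4 200M older ovary libraries, with a line at the group mean. In Ptgfr, Akr1c18, Sfrp4, Wnt10b and Onecut2 each 200M point lies more than 10-fold below the lowest WT point.

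The promoters of 3 of these genes are shown because the genes fell together and a ZEB protein binds E-boxes. Each is 300 bases, 250 before to 50 after the start in RefSeq on GRCm38.p6, read on the gene's minus strand from 5′ to 3′. Capitals mark matches, on either strand, to the E-box CACCTG or the RUNX motif TGTGGT, and AAGGTCA (NR5A) was searched too. The study gives the ZEB motif as CAGGTR, and its CAGGTA form was not searched. No match of the 3 overlapped another. Wnt10b (chr15:98778101-98778400) held 1 E-box, Runx2 (chr17:44814578-44814877) held 3 RUNX matches, and Akr1c18 (chr13:4150597-4150896) held no match to any of the 3. The promoter of Ptgfr, searched likewise but not shown, held no match either.
Wnt10b: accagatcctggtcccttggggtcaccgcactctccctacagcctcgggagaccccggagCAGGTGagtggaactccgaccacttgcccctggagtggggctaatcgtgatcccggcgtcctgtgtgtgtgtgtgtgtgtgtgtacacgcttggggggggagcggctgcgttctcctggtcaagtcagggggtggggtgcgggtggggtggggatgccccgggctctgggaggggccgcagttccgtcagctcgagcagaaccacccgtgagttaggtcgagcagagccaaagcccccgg
Runx2: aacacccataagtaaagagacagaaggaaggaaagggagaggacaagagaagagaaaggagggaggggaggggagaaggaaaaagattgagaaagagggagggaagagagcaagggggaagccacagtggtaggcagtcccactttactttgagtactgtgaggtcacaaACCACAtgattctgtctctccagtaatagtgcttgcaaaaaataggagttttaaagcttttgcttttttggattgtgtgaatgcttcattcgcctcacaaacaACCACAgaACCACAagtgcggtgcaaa
Akr1c18: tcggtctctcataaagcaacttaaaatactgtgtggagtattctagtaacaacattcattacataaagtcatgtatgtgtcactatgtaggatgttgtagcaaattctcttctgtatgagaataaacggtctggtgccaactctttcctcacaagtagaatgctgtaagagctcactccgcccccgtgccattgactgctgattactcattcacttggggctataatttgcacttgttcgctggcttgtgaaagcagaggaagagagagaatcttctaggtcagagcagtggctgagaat

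RefSeq entries were found for 147 of the 211 lowered genes (190 promoters) and 196 of the 271 raised genes (271 promoters). An E-box match was in 26.8% of promoters of lowered genes and in 25.1% of those of raised genes, beside 18.9% for all tested genes and 20.2% of all 32851 promoters. The RUNX motif was in 18.4% and 16.2%, beside 13% for tested genes and 16.8% of all promoters, and the NR5A motif in 4.74% and 3.69%, beside 3.51% and 4.72%. These shares describe letters in a window and say nothing of binding.

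None of 16 granulosa genes was called by edgeR (median log2 difference −0.21), where 482 of all 17792 tested genes were called. At that share a list of this size may hold no called gene. DESeq2 called 1 granulosa gene lowered (Fshr, adjusted p = 0.0389), beside 611 of 18919 tested genes. Fshr, the receptor for follicle-stimulating hormone, was at 44.8, 79.5, 39.7 and 72.5 CPM in WT and at 24.1, 36.0, 15.0 and 40.8 CPM in 200M (log2 difference −1.01 ± 0.339, adjusted p = 0.172). Anti-Müllerian hormone (Amh), made by granulosa cells of growing follicles, was at 244, 200.0, 268 and 91.0 CPM in WT and at 194, 373, 363 and 181 CPM in 200M (adjusted p = 0.536). Both genes overlapped between the groups. The inhibin and activin subunits Inha, Inhba and Inhbb had log2 differences of −0.43 ± 0.353, −0.31 ± 0.855 and −0.75 ± 0.638, all with an adjusted p above 0.5. In 200M 3, Inhba was at 28.7 CPM against 899 to 1298 CPM in the other 200M libraries, and Cyp19a1 and Lhcgr were lowest there too. The same library had the highest oviduct and adipocyte levels, and whether it held less follicle tissue was not tested.

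Theca and oocyte genes held 3 of the raised calls. Insl3, a relaxin-like hormone of theca cells (chr8:71689214-71690575), was at 9.37, 9.93, 11.7 and 11.9 CPM in WT and at 39.1, 27.8, 21.5 and 40.2 CPM in 200M (log2 difference 1.60 ± 0.227, adjusted p = 0.012). The groups did not overlap, but exons of Insl3 lie within those of Jak3 on the same strand, which also rose. Insl3 lost its call without WT 2 (adjusted p = 0.0601). Nr2f2, a nuclear receptor of theca and stroma, rose by 0.62 ± 0.118 on the log2 scale (adjusted p = 0.031), and with Insl3 made 2 of 7 theca genes raised, where 1.52% of all tested genes were raised. Nr2f2 was called in only 2 of the 8 fits that left out a library (adjusted p up to 0.113) and not with the oviduct covariate (0.0916).

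Kit, the receptor of oocytes and theca cells for Kit ligand, was at 160, 92.5, 90.1 and 95.3 CPM in WT and at 187, 179, 238 and 235 CPM in 200M (log2 difference 0.94 ± 0.206, adjusted p = 0.0494). It was the single oocyte gene of 21 called, where 1.52% of all tested genes were raised. Its call was kept only in the fit without WT 1 of the 8 that left out a library (adjusted p of 0.0640 to 0.171 in the other 7). All 21 oocyte genes had a positive log2 difference, with a median of 0.36, as did 9808 of all 17792 tested genes. Their summed level was 431 to 697 CPM in WT, 533 to 789 CPM in 200H and 737 to 931 CPM in 200M. In 200H against WT, 20 of 21 were positive (median 0.29), and in 200M against 200H, 16 of 21 (median 0.06). Gdf9, a growth factor that the oocyte secretes, was at 58.5 ± 17.1 CPM in WT and 72.0 ± 14.5 CPM in 200M (adjusted p = 0.52).

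Of 14 tested genes that LH induces in the follicle at ovulation, 1 was called lowered and none raised (median −0.29). Of all tested genes 1.19% were lowered. The lowered gene was Tnfaip6, which ties the hyaluronan matrix around the oocyte together. It was at 5.08, 4.89, 7.57 and 3.04 CPM in WT and at 1.20, 0.48, 0.42 and 0.61 CPM in 200M (log2 difference −2.91 ± 0.421, adjusted p = 0.0127), and its call was lost without WT 2 or without 200M 4 (up to 0.0516). The progesterone receptor Pgr was at 1.92 to 18.0 CPM in WT and 2.40 to 44.7 CPM in 200M, highest in WT 1 and 200M 3, the libraries with most oviduct RNA (adjusted p = 0.553). Ptgs2, the prostaglandin synthase of ovulation, had too few counts to be tested, at 0.36 to 5.74 CPM over the 8 libraries.

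Immediate early genes, which cells switch on within minutes of a stimulus, had a summed level of 446, 932, 542 and 725 CPM in WT and 383, 397, 394 and 313 CPM in 200M, with no overlap. Of 12 tested, 11 had a negative log2 difference (median −0.66), as did 7984 of all 17792 tested genes. Only Egr3 was called lowered, where 1.19% of all tested genes were. It was at 6.04, 3.92, 3.56 and 7.06 CPM in WT and at 1.64, 1.56, 2.33 and 1.90 CPM in 200M (log2 difference −1.45 ± 0.283, adjusted p = 0.0335). Egr3 kept its call in 1 of the 8 fits that left out a library (up to 0.106) and not without WT 1 and 200M 3 together (0.0564).

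In cholesterol synthesis, Fdps, which makes farnesyl diphosphate, was the single gene of 26 called, beside 1.19% of all tested genes lowered. It was at 91.2, 161, 132 and 79.4 CPM in WT and at 60.3, 37.4, 32.1 and 54.6 CPM in 200M (log2 difference −1.32 ± 0.281, adjusted p = 0.0466), and it kept its call in 1 of the 8 fits that left out a library (up to 0.143). The median log2 difference of the 26 genes was −0.38.

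Genes of immune cells were among those that rose. Among 22 macrophage genes, 5 were called raised and none lowered (median log2 difference 0.92), where 1.52% of all tested genes were raised. Their summed level was 655, 790, 1421 and 1561 CPM in WT and 9646, 2504, 2642 and 7033 CPM in 200M, so that every 200M library was above every WT library and 200M 1 and 4 were highest. Without WT 1 and 200M 3, 8 of 22 were raised, beside 351 of 17821 tested genes. With the oviduct covariate it was 4, beside 149 of 17792, and by DESeq2 12, beside 718 of 18919.

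Tyrobp, the signalling adaptor of many myeloid receptors (chr7:30413760-30417585), was at 16.2, 17.5, 27.9 and 34.2 CPM in WT and at 160, 82.3, 64.3 and 108 CPM in 200M (log2 difference 2.13 ± 0.339, adjusted p = 0.0179). It lost its call without WT 2, WT 3 or 200M 4 (up to 0.0766). Gpnmb, a glycoprotein of macrophages laden with lipid or debris, had the widest range, at 40.8, 89.9, 178 and 184 CPM in WT and 3031, 457, 549 and 2321 CPM in 200M (log2 difference 3.72 ± 0.754, adjusted p = 0.038). Lysozyme (Lyz2) was at 131, 151, 322 and 348 CPM in WT and at 3194, 733, 785 and 2193 CPM in 200M (log2 difference 2.88 ± 0.570, adjusted p = 0.0351). In both genes the highest 200M libraries were replicates 1 and 4, and each was called in 2 of the 8 fits that left out a library (up to 0.147 for Gpnmb and 0.13 for Lyz2).

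The lipid-sensing receptor Trem2 and the Fc receptor chain Fcer1g rose by 2.26 ± 0.421 and 1.59 ± 0.285 on the log2 scale (adjusted p of 0.0296 and 0.0268). Fcer1g was called in 3 of the 8 fits that left out a library (up to 0.0916). Receptors by which tissue macrophages are usually recognised were not called. Adgre1 (F4/80) was at 15.4, 16.8, 23.9 and 24.5 CPM in WT and at 41.7, 5.51, 16.2 and 34.6 CPM in 200M (adjusted p = 0.789). Csf1r had a log2 difference of 0.47 ± 0.275 (adjusted p = 0.418), the mannose receptor Mrc1 of 0.08 ± 0.241 (0.889), the scavenger receptor Cd163 of −0.71 ± 0.418 (0.423) and Cx3cr1 of −0.47 ± 0.263 (0.408). Each of these 5 genes overlapped between the groups. Acp5, the tartrate-resistant acid phosphatase of osteoclasts and some macrophages, was at 11.2, 12.5, 16.8 and 18.1 CPM in WT and at 117, 52.9, 65.7 and 75.9 CPM in 200M (log2 difference 2.43 ± 0.272, adjusted p = 0.00482).

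Of 13 lymphocyte genes tested, all had a positive log2 difference (median 1.76), as did 9808 of all 17792 tested genes, and 5 were called raised, where 1.52% of all tested genes were. The summed level of the list was 66.5, 29.6, 27.8 and 55.5 CPM in WT and 254, 128, 194 and 119 CPM in 200M, with no overlap. Cd4, the co-receptor of helper T cells (chr6:124864692-124888221), was at 2.28, 2.16, 4.56 and 4.52 CPM in WT and at 78.7, 34.04, 34.4 and 60.7 CPM in 200M. It rose by 3.96 ± 0.397 on the log2 scale, or 15.6-fold, with adjusted p = 0.00323, and kept its call in each of the 8 fits that left out a library. The T cell receptor chain gene Trac rose by 2.02 ± 0.355, the CD3 chains Cd3g and Cd3d by 1.59 ± 0.285 and 1.80 ± 0.373, and the cytotoxic granule gene Nkg7 by 1.91 ± 0.342 (adjusted p of 0.025 to 0.041). These 4 genes were under 5 CPM in all 8 libraries, whereas Cd4 was at 34.04 CPM or more in each 200M library. In 200M, Cd4 and the macrophage sum were highest in replicates 1 and 4, and the lymphocyte sum in replicates 1 and 3. Which cells held the Cd4 RNA was not tested. With the oviduct covariate only Cd4 of the list kept its call, beside 149 of 17792 tested genes raised. DESeq2 called 10 raised, beside 718 of 18919.

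Of genes outside the list, Skap1, an adaptor of T cell receptor signalling, was at 2.10, 1.84, 2.10 and 2.30 CPM in WT and at 6.33, 8.15, 7.74 and 8.49 CPM in 200M (log2 difference 1.89 ± 0.196, adjusted p = 0.0037). Jak3, the kinase of the common γ-chain cytokine receptors, with exons shared with Insl3 on the same strand, was at 26.1, 29.4, 28.2 and 32.01 CPM in WT and at 57.2, 54.3, 52.4 and 53.6 CPM in 200M (log2 difference 0.92 ± 0.100, adjusted p = 0.00437). Replicates of both genes were tight. Fcrl1, an Fc receptor-like protein of B cells, went from 0.47 ± 0.0752 to 2.41 ± 0.332 CPM (SD, n = 4; log2 difference 2.35 ± 0.252, adjusted p = 0.00423).

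Of 16 genes of antigen presentation, 4 were raised and none lowered (median 0.67), beside 1.52% of all tested genes raised. The class I heavy chain H2-D1 was at 236, 193, 208 and 256 CPM in WT and at 754, 448, 506 and 523 CPM in 200M (log2 difference 1.33 ± 0.186, adjusted p = 0.0109), and lost its call without WT 2 or WT 3 (up to 0.0559). Reads of H2-D1 and of the other class I gene H2-K1, which rose by 0.61 ± 0.125 (adjusted p = 0.0387), may be split between near-identical copies. B2m, the light chain that class I molecules share, was at 285, 250, 262 and 281 CPM in WT and at 750, 588, 431 and 543 CPM in 200M (log2 difference 1.12 ± 0.178, adjusted p = 0.0181). It was called in 4 of the 8 fits that left out a library (up to 0.0832). Psmb8, a subunit of the immunoproteasome, rose by 0.74 ± 0.141 (adjusted p = 0.0324). Only H2-D1 and B2m of the list were called raised without WT 1 and 200M 3, beside 351 of 17821 tested genes. The same 2 genes alone were called with the oviduct covariate, beside 149 of 17792. Class II genes were higher on average but not called, with a log2 difference of 0.67 ± 0.223 for H2-Ab1 (adjusted p = 0.171) and 0.67 ± 0.233 for Cd74 (0.186).

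In the complement system 2 of 10 genes were raised (median 0.57), beside the same 1.52%. C7, a component of the membrane attack complex (chr15:4988762-5063740), was at 9.81, 17.7, 22.2 and 25.4 CPM in WT and at 133, 80.2, 105 and 150 CPM in 200M (log2 difference 2.66 ± 0.303, adjusted p = 0.00518). The inhibitor of the classical pathway, Serping1, rose by 0.83 ± 0.182 (adjusted p = 0.0494). With the oviduct covariate only C7 of the complement list kept its call, beside 149 of 17792 tested genes raised. Of 13 chemokine genes 3 were raised (median 0.46), again beside 1.52%. Cxcl12, a chemokine of stromal cells, was at 76.5, 60.5, 60.5 and 61.8 CPM in WT and at 149, 120.0, 149 and 123 CPM in 200M (log2 difference 1.07 ± 0.125, adjusted p = 0.00557). Ccl3 and Ccl5, which attract monocytes and T cells, rose by 2.34 ± 0.396 and 1.96 ± 0.406 (adjusted p of 0.0217 and 0.041) from 2.87 CPM or less in each WT library. Of the chemokine list only Cxcl12 kept its call with the oviduct covariate. The neutrophil chemokine receptor Cxcr1 rose from 0.19 ± 0.144 to 5.32 ± 3.99 CPM (log2 difference 4.74 ± 0.839, adjusted p = 0.026), and kept its call in 3 of the 8 fits that left out a library (up to 0.0837) and not with the oviduct covariate (0.0833).

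**Figure D4:**
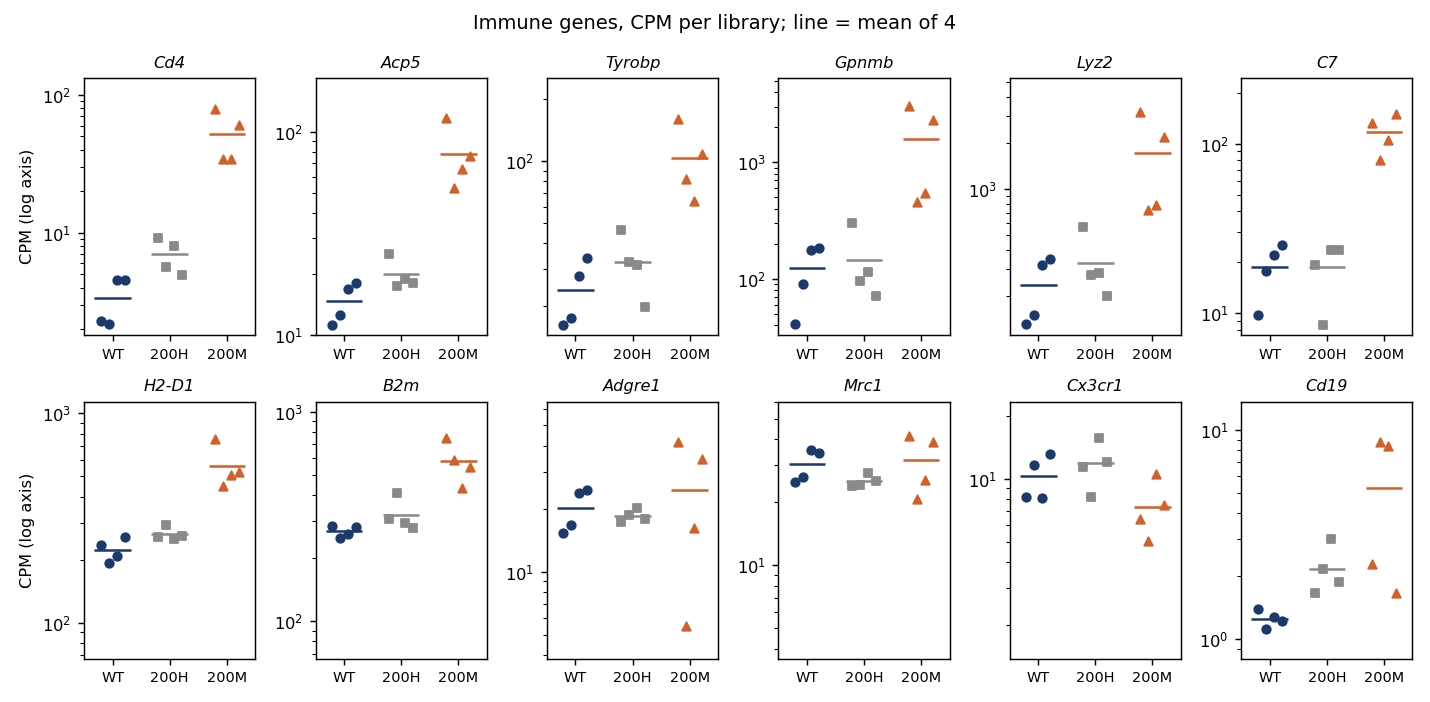
CPM (log axes, 1 panel per gene) of immune genes in each of the 4 WT, 4 200H and 4 200M older ovary libraries, with a line at the group mean. Cd4, C7, Acp5, Gpnmb and H2-D1 are higher in each 200M library than in any WT library, whereas Mrc1 and Cx3cr1 overlap.

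The raised genes of smallest p came from several families. Kcng4, a modifying subunit of voltage-gated potassium channels (chr8:119623854-119635680), was at 4.03, 3.20, 2.46 and 3.61 CPM in WT and at 25.0, 21.1, 27.1 and 24.7 CPM in 200M. It rose by 2.88 ± 0.194 on the log2 scale (adjusted p = 0.000514) and was called in each of the 8 fits that left out a library. Pla2g2d, a secreted phospholipase A2, was at 2.72, 2.08, 2.83 and 4.02 CPM in WT and at 21.7, 19.1, 17.1 and 16.4 CPM in 200M (log2 difference 2.68 ± 0.236, adjusted p = 0.00203). Fabp3, a carrier of fatty acids in muscle and steroidogenic tissue, was at 21.5, 22.1, 17.1 and 22.7 CPM in WT and at 73.7, 83.9, 53.2 and 75.9 CPM in 200M (log2 difference 1.79 ± 0.169, adjusted p = 0.00252). None of these genes overlapped between the groups.

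Naip5, a sensor of bacterial flagellin in the inflammasome, was at 9.98, 5.21, 6.66 and 8.54 CPM in WT and at 34.2, 39.3, 48.8 and 33.4 CPM in 200M (log2 difference 2.36 ± 0.223, adjusted p = 0.00252). Naip genes are near-identical copies, so the split of reads among them is uncertain. Bpifb5 rose from 60.9 ± 12.4 to 208 ± 40.3 CPM (log2 difference 1.79 ± 0.187, adjusted p = 0.00378). Myh6, the α heavy chain of cardiac myosin, showed the largest rise of all tested genes, from 0.88, 0.56, 0.09 and 0.25 CPM in WT to 13.9, 31.3, 26.1 and 13.4 CPM in 200M (log2 difference 5.54 ± 0.570, adjusted p = 0.00362). The tetraspanin Tspan10 and the lysosomal channel Mcoln3 rose from under 1 CPM in each WT library to 1.497 to 7.43 CPM and 3.74 to 19.3 CPM in 200M, with adjusted p of 0.0109 and 0.0159. Tspan10 lost its call without WT 3 (0.0524) and Mcoln3 without WT 2 or WT 3 (up to 0.0738).

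Vessels, muscle and dividing cells gave no called gene with all 8 libraries by edgeR, where 482 of all 17792 tested genes were called. At that share lists of this size may hold no called gene. None of 19 endothelial genes (median log2 difference −0.14), 10 smooth muscle genes (0.19), 25 cell cycle genes (0.01), 11 hormone receptor genes (−0.17), 5 red blood cell genes (0.08), 8 adipocyte genes (1.80) or 6 oviduct genes (1.87) was called, and DESeq2 called 1 endothelial and 2 hormone receptor genes lowered. The adipocyte median rested on 200M 3, at 2106 CPM for the list, and was −0.11 without WT 1 and 200M 3 and −0.18 with the oviduct covariate. The oviduct median was 2.95 over 5 genes, 1 of them called raised, without WT 1 and 200M 3, and −1.23 with the covariate. Among 23 stromal matrix genes (median −0.42), Timp1, an inhibitor of matrix proteases, was called lowered, at 247, 75.8, 93.5 and 65.6 CPM in WT and at 21.5, 27.9, 9.65 and 21.7 CPM in 200M (log2 difference −2.57 ± 0.495, adjusted p = 0.0324). Of 7 genes of the ovarian surface mesothelium (median −0.51), Lgals7, a galectin, was called lowered, at 27.2, 21.3, 17.4 and 43.5 CPM in WT and at 9.83, 4.32, 10.8 and 7.28 CPM in 200M (log2 difference −1.75 ± 0.349, adjusted p = 0.0366). Neither gene overlapped between groups, and Timp1 kept its call in 3 and Lgals7 in 1 of the 8 fits that left out a library (up to 0.0957 and 0.0922). These single calls stand beside 1.19% of all tested genes lowered.

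Ovaries with 1 mutated allele were compared with both. In 200H against WT, edgeR called 0 of 17605 genes (0%), with 1160 at an unadjusted p below 0.05, and DESeq2 called 21. In 200M against 200H it called 127 raised genes, 0.711% of 17855, and 161 lowered genes, or 0.902%. This comparison has its 200M libraries in common with that against WT, so values are given side by side. In the 200H libraries Ptgfr was at 816, 1302, 669 and 483 CPM, Sfrp4 at 4756, 4606, 1661 and 1597 CPM, and Akr1c18 at 2440, 4429, 1432 and 2083 CPM. All of these were above every 200M library. The log2 difference of 200M against 200H was −7.34 ± 0.399 for Ptgfr (adjusted p = 0.000125), −6.85 ± 0.537 for Sfrp4 (0.000869), −9.34 ± 0.549 for Akr1c18 (0.000146) and −3.21 ± 0.337 for Star (0.00435).

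Against 200H, 6 of 14 luteal genes were lowered (median −2.20), 3 of 22 macrophage genes raised (0.94) and 4 of 13 lymphocyte genes raised (1.24), and 5 of 12 immediate early genes were lowered (−1.24). Cd4 was at 9.13, 5.67, 8.07 and 4.95 CPM in 200H and had a log2 difference of 2.89 ± 0.339 (adjusted p = 0.00657), and Kcng4, at 6.08, 1.98, 4.99 and 5.56 CPM in 200H, one of 2.38 ± 0.318 (0.0109). Of the 482 genes called against WT, 473 were tested against 200H and 202 were called there, 41.9% of the 482, all in the same direction. Of the 40 named genes called against WT, many of them chosen by their p there, 26 were called against 200H and 14 were not. For Cxcl12, 200H 2 was at 321 CPM and the other 200H libraries at 50.0 to 112 CPM (log2 difference −0.06 ± 0.498, adjusted p = 0.981). Tnfaip6 was at 1.48, 0.76, 1.37 and 1.00 CPM in 200H, below every WT library (−0.79, adjusted p = 0.47). Adjusted p was 0.291 for Naip5, 0.181 for Zfp398, 0.152 for Lrrn1 and 0.121 for both Pdia4 and Bpifb5, and Cxcr1, Mcoln3, Kit, Fdps, Timp1, Lgals7 and Egr3 were not called either. The 200H libraries 3 and 4 were rich in oviduct RNA, with summed levels of 398 CPM in 200H 3 and 3217 CPM in 200H 4.

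Young virgin ovaries allow the same contrast in other mice. In young 200M against WT, 169 genes were raised, 0.878% of 19250, and 328 lowered, or 1.7%. Of the 482 genes called in the older ovary, 427 were tested in the young, and 76 were called there too, which is 15.8% of the older and 15.3% of the 497 young calls. All 76 had the same direction in both, 58 lowered and 18 raised. The cohorts differ in age and breeding history and also in RNA selection, strandedness and sequencing, and these cannot be told apart.

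Luteal genes were lower in young 200M ovaries as well, with 8 of 15 called lowered (median −0.70). Ptgfr was at 202, 126, 244 and 210 CPM in young WT and at 7.41, 104, 6.97 and 7.02 CPM in young 200M, and Akr1c18 at 81.2, 105, 79.2 and 67.0 CPM and at 0.61, 25.3, 0.70 and 0.45 CPM. In both genes young 200M 2 was below the lowest WT library and the other 200M libraries were far lower still. Akr1c18 was called lowered (log2 difference −3.49, adjusted p = 0.0152), whereas Sfrp4, at 249 to 360 CPM in young WT and at 7.17, 242, 6.83 and 10.3 CPM in young 200M, was not (−2.28, adjusted p = 0.171).

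Few immune genes were called raised in the young ovary. Of 22 macrophage genes 1 was raised and 2 lowered there (median −0.18), of 16 antigen presentation genes 2 were lowered (−0.31), of 8 lymphocyte genes none was called by edgeR (0.47), and of 11 complement genes 3 were lowered (−0.18). Granulosa and cell cycle genes each had 3 members raised, of 16 and 25 tested. Cd4 was at 4.67, 4.39, 5.15 and 8.87 CPM in young WT and at 12.8, 8.05, 13.2 and 9.96 CPM in young 200M (log2 difference 0.93, adjusted p = 0.0618).

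The difference of the 200M effect between the cohorts was tested as an interaction over the 16 libraries. It was called for 43 of 21786 genes, 0.197%. The 200M effect on C7 was larger in the older ovary by 2.33 ± 0.344 on the log2 scale (adjusted p = 0.0163), on Acp5 by 2.48 ± 0.358 (0.0163) and on Cd4 by 2.999 ± 0.481 (0.0248). In young ovaries C7 was at 27.5 to 40.1 CPM in WT and 33.5 to 50.7 CPM in 200M, and Acp5 at 3.42 to 6.18 and 4.13 to 5.66 CPM, so the groups overlapped there. The effect on Gpr141 was more negative in the older ovary by −3.73 ± 0.523 (adjusted p = 0.0163) and on Plekhg4 by −5.80 ± 0.942 (0.0263). Young Plekhg4 was at 12.7 to 19.8 CPM in WT and at 1.58, 18.4, 2.23 and 1.925 CPM in 200M. Only young 200M 2 lay within the young WT range. No luteal gene of the 15 tested was called by edgeR in this test, with a difference of −4.75 ± 1.08 for Ptgfr (adjusted p = 0.0826) and −0.14 ± 0.281 for Hsd3b1. Leaving out 1 of the 16 libraries gave between 1 (without young WT 4) and 252 calls (without older 200M 2).

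**Figure D5:**
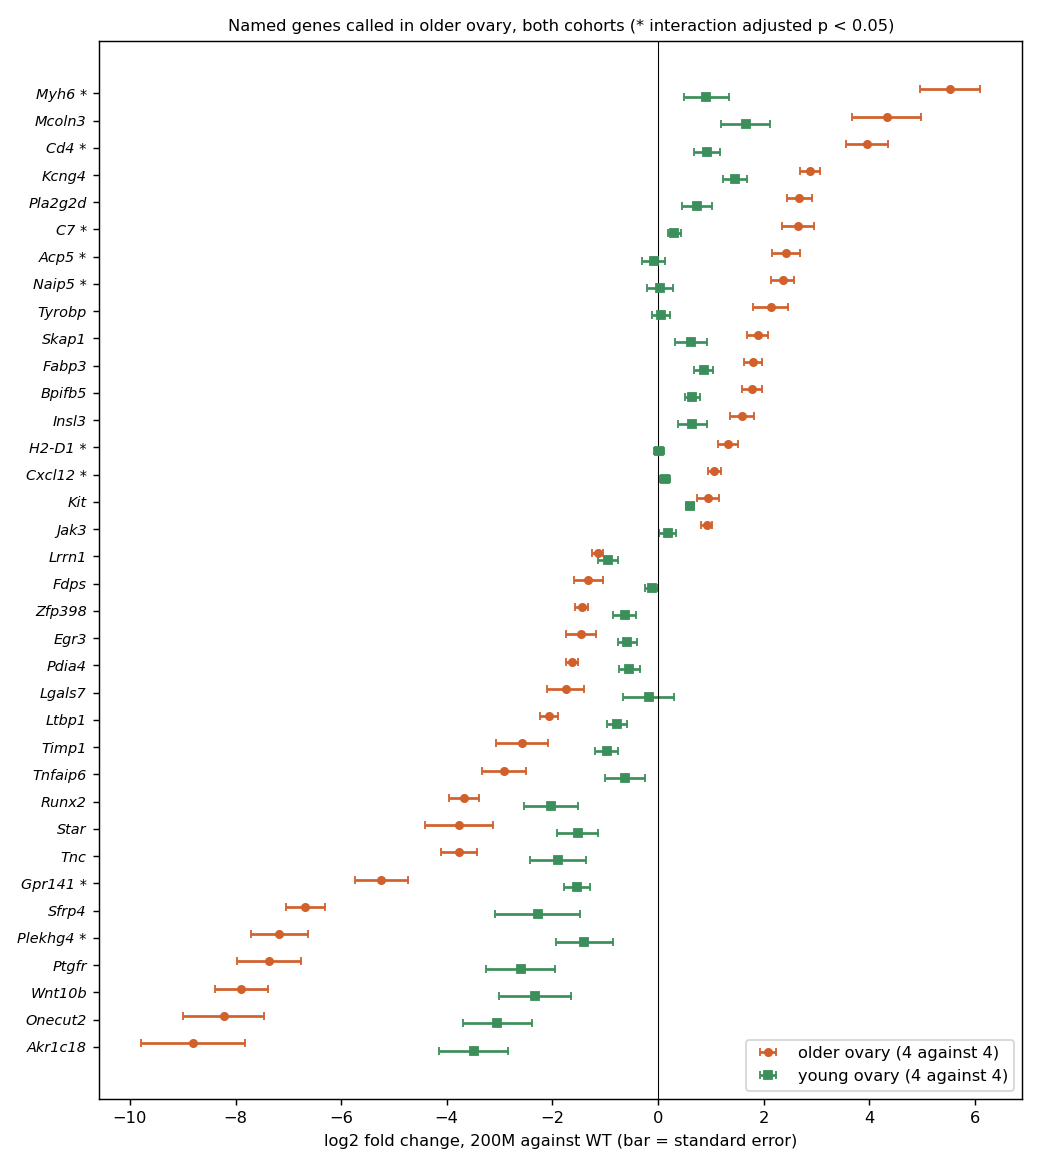
Log2 difference of 200M against WT (horizontal axis, bars show the SE) in the older ovary (circles) and the young ovary (squares) for the 36 named genes called in the older ovary and tested in both, with an asterisk where the interaction was called. The sign was the same in both cohorts for 35 of the 36, the exception being Acp5 with 2.43 in the older and −0.08 in the young ovary.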

How the data were processed

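Total RNA of whole ovaries was measured. For the older ovaries the authors made unstranded poly(A) libraries with 15 PCR cycles, sequenced 50 nt from 1 end, aligned the reads to mm10 (GRCm38) with STAR 2.7.1a and assigned them to GENCODE genes with featureCounts, ignoring strand. Young libraries were rRNA-depleted, stranded and paired-end. The deposited values used here are raw read counts per gene and library. The tables also hold the authors' DESeq2 fold changes and p-values, which were not used, and 0 columns of per-sample counts from outside the series. The 55401 gene IDs had a symbol in all but 260 cases. Coordinates and exon overlaps are those of GENCODE M21 on GRCm38.

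Groups follow the genotype and age labels, and replicates are different mice. Each pair of groups was fitted alone with edgeR 4.0.16 (R 4.3.3, limma 3.58.1): genes kept by filterByExpr, TMM scaling, quasi-likelihood F test and Benjamini-Hochberg adjustment, called below 0.05. The SE is the log2 difference divided by the root of F. The interaction was fitted over the 16 older and young WT and 200M libraries. No 2 libraries of a group were copies (chi-square per degree of freedom of at least 3.55). The script was tested on simulated data. DESeq2 1.42.0, other scalings and filters, single libraries left out, a replicate block and a correction for gene length were alternatives. Leaving out WT 1 and 200M 3, and the oviduct covariate, were chosen after seeing the data.

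Genes were named by rule: Zeb1, Zeb2 and the miR-200 hosts; the 12 raised and 12 lowered genes of smallest p and the 5 of largest change each way among called, non-overlapping genes with a mean of at least 2 CPM in the higher group (Gm-number and Rik symbols left out); the called gene of smallest p in each direction of each of 23 lists; and a set of steroid, follicle and epithelial genes, 65 in all, of which a few are not reported here. Other list members named as examples were chosen after their values were seen. The members and lists were chosen with earlier results of these data known.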

Additional observations from a re-analysis of the deposited data

Results flagged for a closer look

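In 14 of 176 groups of 4 values tested (chance alone gives about 1 in 20, or 8.8), 1 library lay apart from the other libraries by Dixon's criterion on log2(CPM + 0.5). Among WT libraries, replicate 1 stood apart for Wnt10b at 76.53 CPM (others 228.1 to 281.8), for Kit at 159.7 CPM (90.07 to 95.3), for Cxcl12 at 76.53 CPM (60.46 to 61.81) and for the oviduct list at 763.5 CPM (9.126 to 9.686). WT 2 stood apart for the theca list at 1917 CPM (851.1 to 949.3), and WT 3 for Inha at 1869 CPM (3266 to 3583) and Inhbb at 231.5 CPM (707.6 to 888). Among 200M libraries, replicate 3 stood apart for Cyp19a1 at 1.414 CPM (94.13 to 145.4), Lhcgr at 137.1 CPM (779.9 to 1101), Inhba at 28.69 CPM (899.1 to 1298), Esrp1 at 54.47 CPM (12.94 to 14.71) and the steroid synthesis list at 6500 CPM (12660 to 14490). 200M 2 stood apart for Plekhg4 at 2.157 CPM (0.9099 to 0.998) and 200M 4 for the immediate early list at 312.8 CPM (382.8 to 396.6).

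The effect of 200M differed between the older and the young ovary, by edgeR's interaction test, for 10 of the named genes. The older effect was larger by 2.303 on the log2 scale for Naip5, 2.999 for Cd4, 4.594 for Myh6, 2.484 for Acp5, 2.327 for C7, 5.246 for Sfrp5, 1.289 for H2-D1 and 0.9165 for Cxcl12. It was more negative for Plekhg4 (−5.795) and Gpr141 (−3.731). Age cannot be told apart from breeding history, library chemistry and sequencing.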

How the results depend on the processing

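The count of 482 genes called in 200M against WT became 1329 by DESeq2, 815 with the 3 genotypes in the fit, 752 without WT 1 and 200M 3, 222 with the oviduct level as a covariate, and 87 to 599 with 1 library left out. It was 469 under RLE scaling, 518 with no filter on low counts, 397 above 1 CPM in WT and 481 with the length trend removed. The 288 calls against 200H became 864 by DESeq2 and 77 to 357 with 1 library left out. The 43 interaction calls became 356 by DESeq2, 123 with no filter and 1 to 252 with 1 library left out. The causes were not tested.

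With the replicate block the counts were 101 against WT, 77 against 200H and 0 for the interaction. Replicate numbers share only a number: same-numbered WT and 200M libraries had correlations of −0.252, 0.169, −0.371 and 0.0978 in their deviations from the group means over 17792 genes. None of these WT and 200M libraries correlated best with the library of its own number in the other group.

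Of the named genes, none that changed sign was called under the setting concerned. With the oviduct covariate the log2 difference became −1.519 for Cdh1, 0.1625 for Cyp17a1, 0.2933 for Cyp19a1, −0.08247 for Esrp1, −1.091 for Gm13648, 0.006546 for Hsd3b1, 0.08714 for Inhba, 0.3525 for Lhcgr, −0.7283 for Pgr, −0.8472 for Rab25 and 0.003069 for Zeb1. It was 0.003143 for Inhba without WT 1 and 200M 3, and −0.09306 for Gm13648 with the replicate block. With 1 library left out the range was −0.6536 to 1.812 for Cdh1, −0.8458 to 0.04906 for Cyp17a1, −2.042 to 0.3187 for Epcam, −1.043 to 1.089 for Gm13648, −0.2192 to 0.2579 for Gm15884, −0.6147 to 0.07723 for Inhba, −0.5997 to 0.007983 for Lhcgr, −0.1299 to 2.228 for Pgr and −0.4801 to 3.709 for Rab25. Genes near 1 CPM rest on few counts, so that small changes there were not detectable at this depth.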

Other observations

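Further genes for which the 200M effect differed between the cohorts were chosen after their values were seen. Lipg, an endothelial lipase, fell from 905 ± 556 CPM (SD, n = 4) in older WT to 16.6 ± 6.52 CPM in older 200M, a log2 difference of −5.75 (edgeR, adjusted p = 0.00323), against −1.61 in the young ovary (0.00549). The proteoglycan Sdc1 fell from 359 ± 118 to 74.3 ± 11.9 CPM (−2.27, adjusted p = 0.00467), against −0.20 in the young (0.718). Young Sdc1 was at 30.5 to 42.4 CPM in WT and at 22.95, 53.3, 25.8 and 25.7 CPM in 200M. Young 200M 2 was thus above every young WT library, and the other young 200M libraries were below every one.

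Cdkn1c, an inhibitor of cyclin-dependent kinases, rose from 17.5 ± 3.96 to 179 ± 108 CPM (3.38, adjusted p = 0.00853), against 0.34 in the young (0.24). Apolipoprotein E (Apoe), a carrier of cholesterol, rose from 826 ± 231 to 2478 ± 408 CPM (1.60, adjusted p = 0.0123), against 0.17 in the young (0.466). None of these 4 genes overlapped between older WT and 200M.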
